A study of Oryza sativa with 10 samples.

Results

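The salt response of rice line S13 was taken from 5 RNA sequencing libraries out of 10 in the series: the 3 libraries of plants given 140 mM NaCl for 12 days (salt libraries 1, 2 and 3) and the 2 libraries of plants kept at 0 mM (control libraries 1 and 2). Membership followed from the sample titles alone, with no use of measured values. All plants were 42 days old at sampling, having grown for 30 days without added salt before part of them were moved to the saline solution. The labels call S13 salt tolerant, and the other 5 libraries are of a second line, S3, labelled salt susceptible, with the same 2 treatments (3 salt and 2 control libraries). The labels give no variety name for S13. They do not say whether a library is 1 plant or several, nor whether replicates were grown apart, and the p-values below therefore measure only how far these libraries spread. With 2 control libraries against 3 salt libraries, the control side has the least replication, and the fit was therefore repeated with each control library left out.

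Sodium chloride limits water uptake and, as sodium accumulates in the cytosol, competes with potassium and disturbs proteins and membranes. Rice is known to limit sodium in the shoot through HKT-type sodium transporters, to make late embryogenesis abundant (LEA) proteins and osmolytes under abscisic acid signalling, and to adjust water flow through aquaporins. Heat shock proteins refold or hold damaged proteins, and redox enzymes remove the peroxide and superoxide that salt raises. The nuclear genes of these systems were followed by their RAP identifiers. The files hold identifiers and positions on build IRGSP-1.0 but no names: 244 identifiers in 44 lists were named from general knowledge, and a name is used only for the 181 whose chromosome, place in gene order and span matched an entry of that name in the RefSeq gene table of assembly ASM3414082v1. That match cannot tell adjacent copies of a gene apart. The lists were chosen with earlier results of these data known, so the shares called within them are description and test nothing.

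The salt libraries held 23723466 to 25703942 counts and the control libraries 24533997 and 24203925. Values are CPM, read counts scaled to a common library size, on the effective library sizes of the trimmed mean of M-values (TMM) method, on which 3 counts in a library, the level read here as a floor, equal 0.132 to 0.174 CPM in salt libraries and 0.0917 CPM in control libraries; the floor covers counting error only. The biological coefficient of variation was 46.2% among the salt libraries and 25.2% among the control libraries. The median log2 fold change of all tested genes was -0.03 on this scale, -0.16 with upper-quartile factors and -0.76 with library totals alone. Every fold change below is relative to the TMM scale. A lower value of a gene can come from fewer cells of a type or from less RNA per cell, which bulk libraries cannot tell apart.

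Several genes that are known from roots were at or near 0 in these libraries, which are labelled root. Of 5 fixed root markers 4 matched a name, and RCc3, which did not, is left out. SCR1, a factor of the root endodermis, had 206, 181 and 123 counts in salt libraries and 316 and 333 in control libraries. SHR1, which acts with it, had 18, 4 and 11 counts in salt libraries and 68 and 83 in control libraries. QHB, a gene of the root quiescent centre, had 2, 1 and 0 counts in salt libraries and 1 and 18 in control libraries, and CASP1, which forms the Casparian strip, had 3, 2 and 0 counts in salt libraries and 6 and 0 in control libraries. Chosen after their values were seen, the silicon efflux transporter LSI2, the nitrate transporters NRT2.1 and NRT2.2 and the auxin carrier PIN2 had 0 counts in all 5 libraries, against a floor of 3 counts. The tonoplast aquaporin TIP2-1, known from roots, and the expansin EXPA17 had 1 count each over the 5 libraries. NRT2.1 and NRT2.2 are near-identical copies, and reads that fit both may not have been counted. LSI1, a silicon uptake transporter of roots, had counts in every library, with 166, 117 and 131 in salt libraries and 49 and 123 in control libraries. Of 7 listed leaf genes 3 matched a name, and the RBCS genes, which did not, are left out. CAB2R, a chlorophyll-binding protein, had 1.06, 3.01 and 0.91 CPM in salt libraries and 41.1 and 41.3 CPM in control libraries. RCA, which encodes Rubisco activase, had 81.6, 179 and 116 CPM in salt libraries and 84.8 and 105 CPM in control libraries, and CAB1R, a relative of CAB2R, had 23.4, 59.8 and 7.12 CPM in salt libraries and 63.8 and 93.7 CPM in control libraries. The part that tissue makeup has in the results below was not tested.

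**Figure D1:**
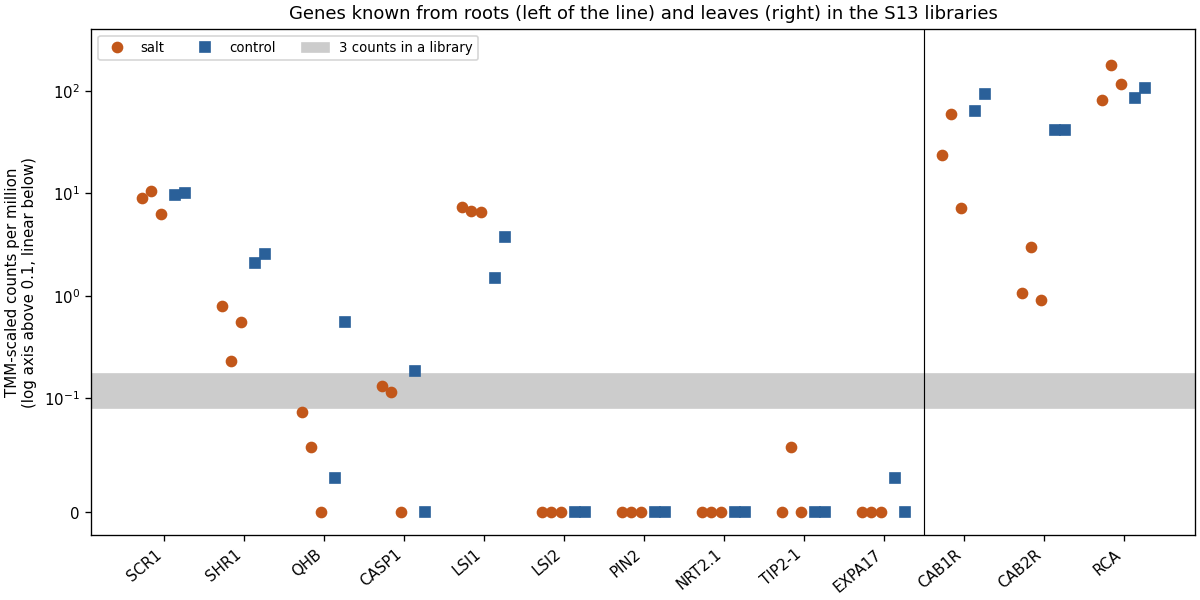
TMM-scaled CPM (vertical, log axis above 0.1 and linear below) in each S13 library of 10 genes known from roots, left of the line, and 3 known from leaves, right of it; each point is a library, circles salt and squares control, and the grey band is the floor of 3 counts. LSI2, PIN2 and NRT2.1 sat at 0 in all 5 libraries, whereas RCA lay between 81.6 and 179 CPM.

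Across the genome, 7627 of 28189 tested genes (27.1%) differed between salt and control in S13 at a Benjamini-Hochberg adjusted p under 0.05 in edgeR's quasi-likelihood test: 3613 were higher under salt (12.8%) and 4014 lower (14.2%). On library totals alone, without TMM factors, the split was 1375 higher and 10004 lower, so that 12.1% of calls were rises instead of 47.4%. Without control library 1 the same test called 1503 genes (5.15%), and without control library 2 it called 2467 (8.42%). Of the 7627 genes, 1296 (4.60% of genes tested) were called in the same direction in all 3 fits, 454 of them higher under salt (1.61%) and 842 lower (2.99%). These 1296 are termed the held calls. They make up 17% of the calls, and 5036 genes were lost in both reduced fits.

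Since the groups did not overlap for 7585 of the 7627 called genes, either control library alone gives these nearly always the same sign, and the sign says little on the weight of the controls. The standard errors were larger with 1 control, with a median of 0.59 on the log2 scale without control library 1 and likewise without control library 2, against 0.44 with both. The genes at an unadjusted p under 0.05 numbered 7629 and 8259 without control libraries 1 and 2, against 11519 with both. The held calls were the larger changes, with a median size of 2.81 on the log2 scale, against 1.68 for the others. Each fit took the spread from the S3 libraries as well, and with the S13 libraries fitted alone these calls were not held. Of called genes that changed by less than 2-fold, none was held. The control libraries differed from each other by a median of 0.26 on the log2 scale. They lay more than 2-fold apart for 9.1% of tested genes, for 7.42% of called genes and for 5.56% of held ones. Groups that did not overlap were found for 57.5% of all tested genes.

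**Figure D2:**
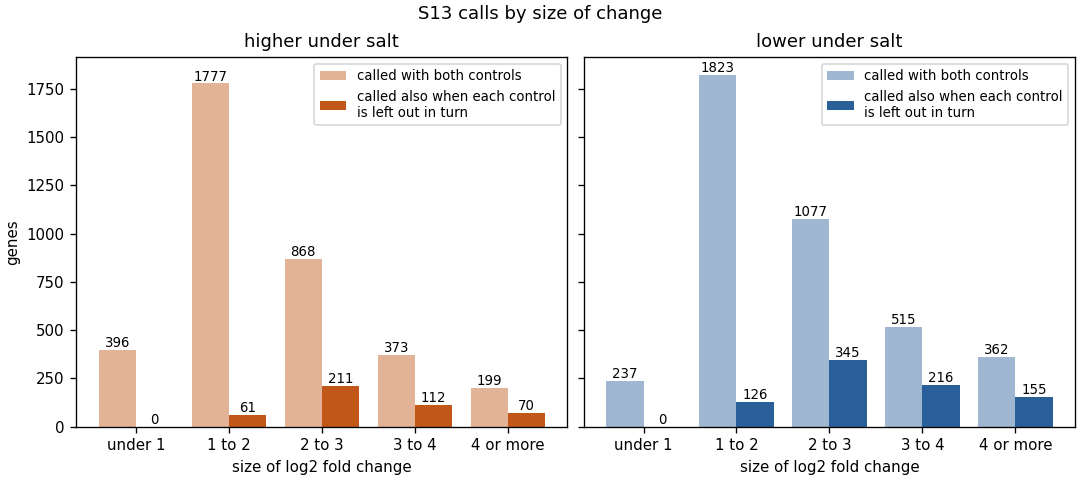
Number of genes called in S13 (vertical) by the size of the log2 fold change (horizontal), higher under salt on the left and lower on the right; pale bars count calls with both control libraries and dark bars the held calls. At a log2 change of 1 to 2, 61 of 1777 rises and 126 of 1823 falls were held, and at 4 or more, 70 of 199 rises and 155 of 362 falls.

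Of the 181 name-matched nuclear genes, 157 passed the filter on low counts; 40 were higher under salt, 10 were lower and 107 did not pass the test. This is 31.8% of those tested, beside 27.1% of all genes, and their median log2 fold change was 0.47, beside -0.03 for all genes. Their own median was -0.28 with library totals, where 18 were called higher and 29 lower. Of the 50 called genes, 20 overlap a gene on the other strand, 12 of them over at least 50% of their exon bases. Reads of these 12 may belong to either gene. The 12 are AKT1, PIP1-2, PIP2-2, PIP2-6, TIP1-1, ABA8OX2, RBOHB, AMT1-3, CESA9, SUS1, SUS2 and RAMY3D. Without salt libraries 1, 2 and 3 in turn, 41, 40 and 42 of the 50 were still called. Fewer were without a control: 10 of the 50 were also called without control library 1 and 15 without control library 2, and 10 (6.37% of those tested, beside 4.60% of all genes) were held: the rises of HSP16.9A, HSP16.9B, HSFA2A, HSP101, RAB25, TIP1-1 and D3, and the falls of CAB2R, HKT1;1 and GS2.

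**Figure D3:**
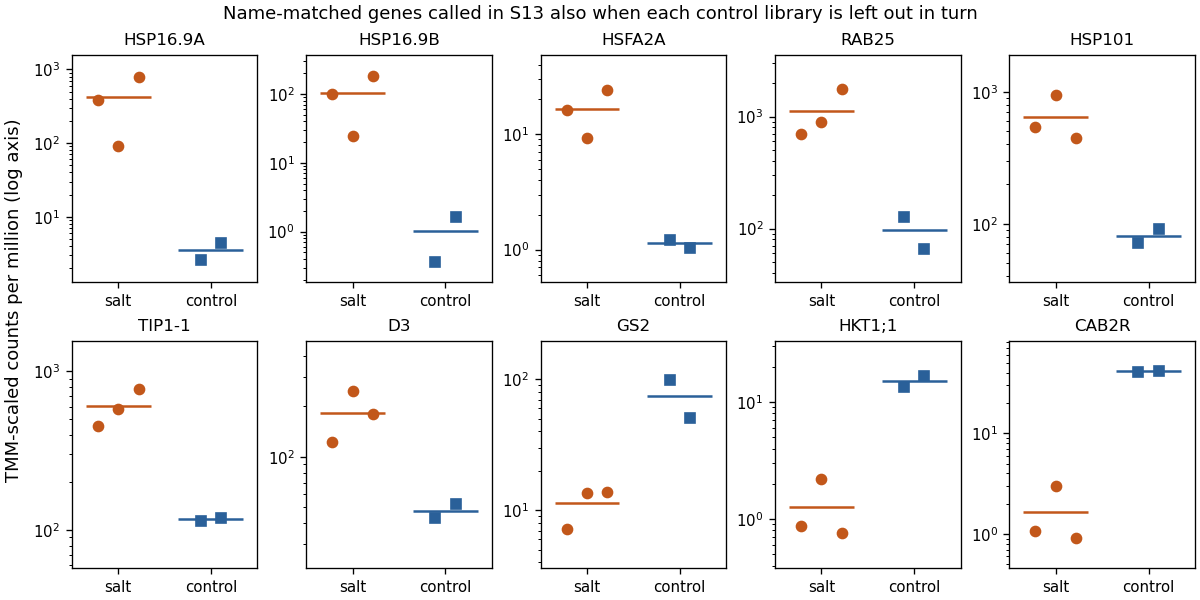
TMM-scaled CPM (vertical, log axes that differ between panels) of the 10 held name-matched genes in the 3 salt libraries (circles) and 2 control libraries (squares) of S13, with a bar at each mean. In each panel all 3 salt libraries lie on the same side of both control libraries. This also held for 7585 of all 7627 called genes and for 57.5% of all tested genes.

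Heat shock genes included the largest rises among the held name-matched genes: all 4 tested members of the list rose, beside 12.8% of all genes, all 4 were held, and all 4 were called higher with library totals too. HSP16.9A (Os01g0136100, chromosome 1, 1948773 to 1949587), a small heat shock protein that binds unfolding proteins, had 388, 90.2 and 786 CPM in salt libraries and 2.57 and 4.46 CPM in control libraries. The lowest salt library was thus far above the higher control, and the log2 fold change was 6.90 ± 1.01 (SE, edgeR adjusted p = 0.00207). It was 6.09 without salt library 3.

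The neighbouring HSP16.9B (Os01g0136200, 1951930 to 1952681), a close relative of HSP16.9A whose reads may be shared with it, had 99.5, 24.5 and 184 CPM in salt libraries and 0.367 and 1.65 CPM in control libraries. Salt library 2 was the lowest of its group for both genes. The log2 fold change of HSP16.9B was 6.66 ± 1.01 (SE, edgeR adjusted p = 0.00228), and it was 5.95 without control library 1, 8.11 without control library 2 and 5.93 without salt library 3. HSFA2A (Os03g0745000, chromosome 3, 30604067 to 30607159), a heat shock transcription factor, had 16.3, 9.31 and 24.3 CPM in salt libraries and 1.22 and 1.04 CPM in control libraries, with a log2 fold change of 3.87 ± 0.70 (adjusted p = 0.00427). Its call was close to the threshold when a control was dropped, at an edgeR adjusted p of 0.0486 without control library 1 and 0.0439 without control library 2. HSP101 (Os05g0519700, chromosome 5, 25803609 to 25807160), a chaperone that dissolves protein aggregates, had 539, 950 and 447 CPM in salt libraries and 71.9 and 90.6 CPM in control libraries. Here salt library 2 was the highest, and the log2 fold change was 2.99 ± 0.43 (SE, edgeR adjusted p = 0.00201).

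LEA proteins, which are hydrophilic proteins of drying seeds and stressed tissue, and the salt-induced lectin SALT also rose: 6 of 8 tested genes were higher under salt (75%, beside 12.8% of all genes), none was lower, and 1 was held. With library totals 5 were higher. The held gene was the dehydrin RAB25 (Os01g0702500, chromosome 1, 29123535 to 29124590), with 705, 891 and 1771 CPM in salt libraries and 126 and 66.2 CPM in control libraries. All salt values exceeded both controls, at a log2 fold change of 3.55 ± 0.54 (SE, edgeR adjusted p = 0.00228; 0.021 without control library 1 and 0.026 without control library 2).

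LEA3, another LEA protein, was high with and without salt: it had 14603, 24066 and 21034 CPM in salt libraries and 5486 and 5903 CPM in control libraries. It rose by 1.81 ± 0.38 on the log2 scale (adjusted p = 0.00808), but its adjusted p was 0.0814 without control library 1 and 0.0613 without control library 2. The adjacent dehydrin genes RAB16C and RAB16D, whose near-identical copies may share reads, rose by 1.74 ± 0.43 and 2.15 ± 0.46 and were not held either. RAB16C had 6883, 11244 and 8416 CPM in salt libraries and 3283 and 2012 CPM in control libraries. Another copy, RAB16B, had 7408, 12551 and 11497 CPM in salt libraries and 6350 and 4919 CPM in control libraries and did not pass the test (log2 fold change 0.90, edgeR adjusted p = 0.126). EMP1, an LEA protein first known from embryos, had 1070, 650 and 3416 CPM in salt libraries and 220 and 253 CPM in control libraries; its log2 fold change was 2.86 ± 0.65 and 1.86 without salt library 3. SALT itself had 5129, 7554 and 2365 CPM in salt libraries and 1780 and 1760 CPM in control libraries. It rose by 1.50 ± 0.47 (edgeR adjusted p = 0.0386), with an adjusted p of 0.18 and 0.172 without control libraries 1 and 2.

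Aquaporins, the membrane channels for water, were higher under salt in 7 of 8 tested cases (87.5%, beside 12.8% of all genes), and 1 of the 7 was held. With library totals 2 were called higher and 1 lower. TIP1-1 (Os03g0146100, chromosome 3, 2562812 to 2564646), of the vacuolar membrane, had 455, 578 and 776 CPM in salt libraries and 115 and 120 CPM in control libraries. The controls nearly coincided, and the log2 fold change was 2.36 ± 0.36 (SE, edgeR adjusted p = 0.00236). On the opposite strand, Os03g0146200 overlaps 70% of the TIP1-1 exon bases, and since reads were counted for both strands its log2 fold change was nearly the same, 2.34.

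The aquaporin PIP2-1, of the plasma membrane, had 428, 644 and 551 CPM in salt libraries and 189 and 286 CPM in control libraries, a log2 fold change of 1.19 ± 0.33 (adjusted p = 0.0251). PIP1-1 and PIP1-2 rose by 1.50 ± 0.40 and 0.97 ± 0.30. None of these was held, with adjusted p-values of 0.14 to 0.256 without control library 1. Salt library 2 set the size of 3 other rises. PIP2-2 had 18, 221 and 30.4 CPM in salt libraries and 5.93 and 14.1 CPM in control libraries; its log2 fold change was 3.16 ± 1.05, 1.27 without salt library 2 (edgeR adjusted p = 0.144) and 3.91 without control library 2. PIP2-6 changed by 1.90, and by 1.12 without salt library 2, where its edgeR adjusted p was 0.103. For TIP2-2, which had 210, 757 and 234 CPM in salt libraries and 77.2 and 90.7 CPM in control libraries, the log2 fold change was 2.25, and 1.40 without salt library 2, where it was still called. Of the tested aquaporins, PIP1-3 alone was lower, at 5.01, 11.1 and 4.6 CPM in salt libraries and 11.5 and 22.6 CPM in control libraries, and did not pass the test (adjusted p = 0.0521). LSI1, an aquaporin relative that takes up silicon, had 7.3, 6.77 and 6.62 CPM in salt libraries and 1.5 and 3.76 CPM in control libraries. Its rise of 1.39 ± 0.43 was 2.2 without control library 2 and was not called without control library 1 (edgeR adjusted p = 0.271).

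**Figure D4:**
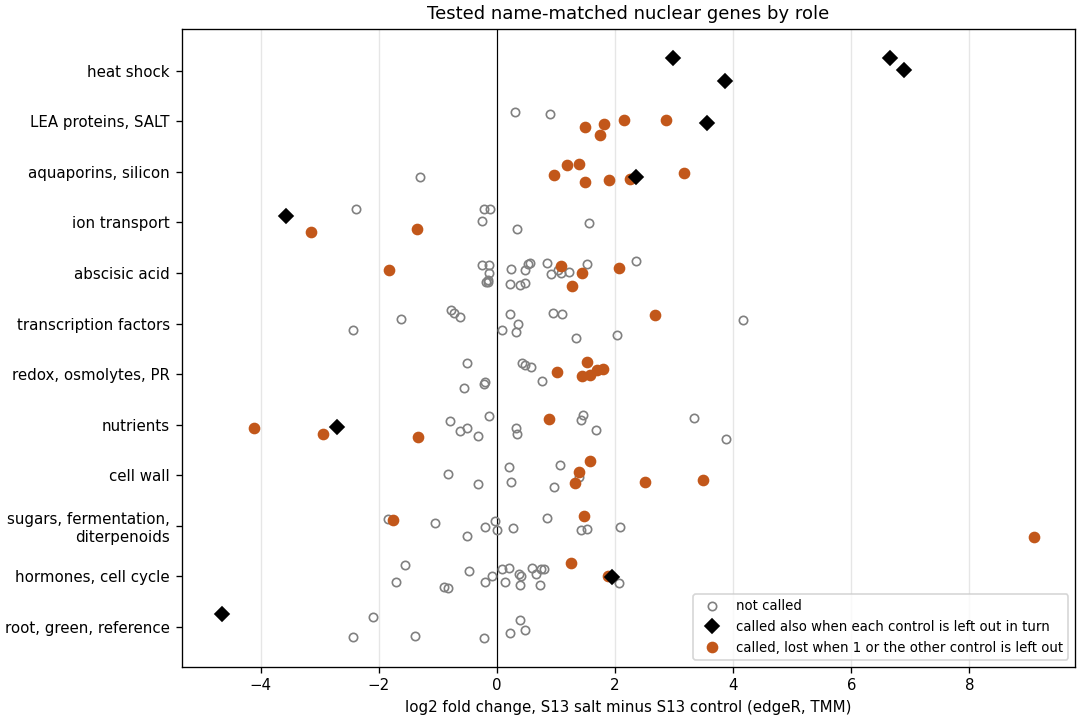
Log2 fold change of S13 salt against S13 control (horizontal) for the tested name-matched genes, 1 point each, in rows by role; black diamonds are held calls, filled circles the other calls and open circles genes that did not pass the test. Vertical position within a row carries no meaning. Heat shock, LEA and aquaporin genes lie mostly right of 0, and the 3 called genes of ion transport lie left of it.

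Of 9 tested ion transport genes, 3 fell, none rose and 6 did not pass the test; the share called, 33.3%, was near the 27.1% of all genes. With library totals 4 were called lower. HKT1;1 (Os04g0607500, chromosome 4, 30724493 to 30727084), a sodium transporter known for limiting sodium in leaves, had 0.879, 2.2 and 0.758 CPM in salt libraries and 13.5 and 16.6 CPM in control libraries. Every salt value was below both controls, and the log2 fold change was -3.57 ± 0.45 (SE, edgeR adjusted p = 0.00127; 0.0115 without control library 1 and 0.00985 without control library 2). It was -4.19 without salt library 2. The root sodium transporter HKT2;1 was near the floor, with 3 counts over the salt libraries and 32 over the control libraries, a level 9.75-fold higher in control with an exact conditional interval of 3.05 to 49.8 (95%, counting error only). It was called with both controls (edgeR adjusted p = 0.046) but not when either was left out, and its fitted log2 fold change of -3.14 was -4.13 without salt library 2. AKT1, the inward potassium channel, had 5.89, 2.26 and 3.89 CPM in salt libraries and 9.99 and 10.6 CPM in control libraries and fell by 1.35 ± 0.42 on the log2 scale (adjusted p = 0.0371), but 84.2% of its exon bases overlap Os01g0648225 on the other strand. It was not called without control library 1 (0.14) or 2 (0.148). The potassium transporters HAK1 and HAK5 did not pass the test, at log2 fold changes of -0.25 and 1.56. For the sodium export pathway, the kinase SOS2 had 60.7, 58.7 and 67.5 CPM in salt libraries and 48 and 50.6 CPM in control libraries, and its calcium sensor SOS3 had 5.85, 1.39 and 3.64 CPM in salt libraries and 4.61 and 3.3 CPM in control libraries; neither passed the test (edgeR adjusted p = 0.268 for SOS2 and 0.878 for SOS3). The proton pump gene OSA7 changed by -0.22 (adjusted p = 0.561).

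Abscisic acid genes were called in 5 of 25 tested cases, 4 higher and 1 lower, which is 20% beside 27.1% of all genes, and none was held, at edgeR adjusted p-values of 0.0932 to 0.283 without control library 1 and 0.0784 to 0.191 without control library 2. With library totals 1 was higher and 4 were lower. ABA8OX2, a hydroxylase that breaks the hormone down, had 53, 131 and 37.9 CPM in salt libraries and 18.9 and 16.3 CPM in control libraries; its log2 fold change was 2.07 ± 0.52, and 1.37 without salt library 2. The synthesis gene NCED3 had 27.4, 46.6 and 14.7 CPM in salt libraries and 10.9 and 14.2 CPM in control libraries and did not pass the test (adjusted p = 0.0817). Of 9 clade A protein phosphatases, which hold abscisic acid signalling off, PP2C51 and PP2C50 rose by 1.09 ± 0.35 and 1.44 ± 0.46, and PP2C68 and PP2C06 had log2 fold changes of 1.53 and 1.04 that did not pass (edgeR adjusted p = 0.0525 and 0.0709). Of the 10 SnRK2 kinases, SAPK1 rose by 1.27 ± 0.31 and SAPK7 fell by 1.82 ± 0.48 on the log2 scale, while SAPK10 and SAPK8 did not pass the test, at 0.92 and 0.47. SAPK1 had 283, 372 and 241 CPM in salt libraries and 118 and 130 CPM in control libraries, without overlap. The bZIP factors TRAB1 and BZIP23, which bind abscisic acid response elements, changed by 0.53 and 0.85 and did not pass.

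Of 15 tested stress transcription factors HOX6 alone was called (6.67%, beside 27.1% of all genes); with library totals 1 was higher and 2 were lower. This homeodomain-leucine zipper gene had 60.7, 35.7 and 116 CPM in salt libraries and 7.27 and 15 CPM in control libraries, a log2 fold change of 2.67 ± 0.61 (edgeR adjusted p = 0.0111), which was 3.28 without control library 2 and lost its call without control library 1 (adjusted p = 0.108). Its relative HOX22 had 539, 1555 and 615 CPM in salt libraries and 338 and 377 CPM in control libraries, and missed the threshold at 0.055. HOX24 had 186, 752 and 89.8 CPM in salt libraries and 197 and 158 CPM in control libraries, so the groups overlapped. The NAC factor NAC6 had 1705, 4844 and 1248 CPM in salt libraries and 1247 and 1157 CPM in control libraries, a log2 fold change of 1.11 that did not pass. WRKY62 had 14.9, 140 and 1.52 CPM in salt libraries and 4.77 and 1.01 CPM in control libraries. For HOX22, HOX24, NAC6 and WRKY62 alike, salt library 2 was the highest. The dehydration response factors DREB1A, DREB1C and DREB2B changed by 0.32, -0.62 and 0.22 and did not pass.

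Genes of the redox, osmolyte and pathogenesis-related lists rose in 6 of 14 tested cases (42.9%, beside 12.8% of all genes) and none fell on the TMM scale, whereas with library totals 1 was called higher and 2 lower. None of the 6 was held, at adjusted p-values of 0.0653 to 0.242 without control library 1 and 0.031 to 0.0928 without control library 2. SODCC2, a copper-zinc superoxide dismutase, had 1270, 1399 and 1966 CPM in salt libraries and 496 and 464 CPM in control libraries, a log2 fold change of 1.69 ± 0.33 (edgeR adjusted p = 0.00623). APX1, an ascorbate peroxidase of the cytosol, had 630, 481 and 452 CPM in salt libraries and 180 and 203 CPM in control libraries, a log2 fold change of 1.44 ± 0.30 (adjusted p = 0.0072). Both genes had salt values more than 2-fold above either control, but missed the threshold without a control, at 0.0653 and 0.0867 without control library 1 and 0.0619 and 0.0552 without control library 2. The catalase CATA rose by 1.79 ± 0.42 and the NADPH oxidase RBOHB by 1.57 ± 0.31; both were called without control library 2 and not without control library 1. BADH1, a betaine aldehyde dehydrogenase, had 40.8, 27.4 and 67.3 CPM in salt libraries and 14.7 and 16.8 CPM in control libraries and rose by 1.52 ± 0.39. The proline synthesis genes P5CS1 and P5CS2 changed by -0.51 and -0.22 and did not pass the test. RINO1, of inositol synthesis, rose by 1.02 ± 0.29.

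Nutrient genes were called in 5 of 17 cases, 4 lower and 1 higher, a share of 29.4% that was close to the 27.1% of all genes. With library totals 6 were lower and none was higher. The isoforms of glutamine synthetase, which fixes ammonium, went in different directions. GS2, the plastid form (Os04g0659100, chromosome 4, 33624428 to 33631025), had 7.21, 13.5 and 13.7 CPM in salt libraries and 98.1 and 50.6 CPM in control libraries. Although the controls were nearly 2-fold apart, the highest salt value was far below both, and the log2 fold change of -2.70 ± 0.37 was held (edgeR adjusted p = 0.00163; 0.0217 without control library 1 and 0.0052 without control library 2). The cytosolic form GS1-2 had 11.2, 8.79 and 2.58 CPM in salt libraries and 17.8 and 20.3 CPM in control libraries and fell by 1.34 ± 0.45 on the log2 scale, whereas GS1-1 had 280, 417 and 277 CPM in salt libraries and 173 and 181 CPM in control libraries and rose by 0.88 ± 0.27. Apart from GS2 no called nutrient gene was held, at edgeR adjusted p-values of 0.149 to 0.253 without control library 1 and 0.0704 to 0.19 without control library 2. IRT1, an iron transporter, had 1 count over the salt libraries and 24 over the control libraries. Its level in control was 21.9-fold higher with an exact conditional interval of 3.58 to 902 (counting error only). Its fitted log2 fold change of -4.11 was -6.22 without salt library 1. AMT1-3, an ammonium transporter, had 5 counts over the salt libraries and 44 over the control libraries; its log2 fold change was -2.94, -2.29 without control library 1, and 83.2% of its exon bases overlap another gene. The phosphate genes PHR2, PT8 and SPX1 did not pass the test.

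Cell wall genes were called higher in 5 of 12 tested cases (41.7%, beside 12.8% of all genes), but with library totals 2 were higher and 2 lower. None was held, at edgeR adjusted p-values of 0.0907 to 0.24 without control library 1 and 0.0679 to 0.0971 without control library 2. CESA3 and CESA8, cellulose synthases of growing walls, rose by 1.33 ± 0.41 and 1.58 ± 0.42, and CESA9, of secondary walls, by 2.50 ± 0.59. CESA8 had 85.2, 59.1 and 131 CPM in salt libraries and 24.7 and 36.9 CPM in control libraries. The secondary wall genes CESA4 and CESA7 had log2 fold changes of 1.07 and 0.96 and did not pass. EXPA1, an expansin that loosens walls, had 17.4, 5.84 and 45.6 CPM in salt libraries and 1.83 and 2.23 CPM in control libraries; its log2 fold change was 3.49 ± 0.82, and 2.51 without salt library 3. CAD2, which makes lignin precursors, rose by 1.39 ± 0.39.

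Among sugar genes the sucrose synthases, which split sucrose, differed in direction. SUS1 had 20.5, 19.1 and 15.9 CPM in salt libraries and 92.2 and 33.4 CPM in control libraries. Control library 1 set the size of that fall: the log2 fold change was -1.76 ± 0.40 with both controls (edgeR adjusted p = 0.0106) and -0.85 without control library 1 (adjusted p = 0.191). SUS2 had 212, 213 and 98.3 CPM in salt libraries and 58 and 67.5 CPM in control libraries and rose by 1.47 ± 0.37. The starch-degrading amylase RAMY3D, known to respond to sugar starvation, had 46.1, 1201 and 15.6 CPM in salt libraries and 1.07 and 0.458 CPM in control libraries. Its log2 fold change of 9.10 ± 2.33 was 5.33 without salt library 2 and 9.82 without control library 1, and it overlaps Os08g0473800 over 54.7% of its exon bases. It was not called without control library 1 (edgeR adjusted p = 0.111) or 2 (0.118), and SUS2 was not either (0.131 and 0.0841). The fermentation gene ADH1 had 1043, 335 and 1485 CPM in salt libraries and 370 and 340 CPM in control libraries, so that salt library 2 fell below both controls, and it did not pass the test (adjusted p = 0.0577).

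Of 22 tested genes of hormones other than abscisic acid and of the cell cycle, 3 rose (13.6%, beside 12.8% of all genes) and none fell on the TMM scale, whereas with library totals 1 was higher and 4 were lower. D3 (Os06g0154200, chromosome 6, 2780788 to 2785226), an F-box protein through which strigolactones act, had 123, 246 and 181 CPM in salt libraries and 43 and 51.8 CPM in control libraries. The groups stood apart, the log2 fold change was 1.95 ± 0.32 (edgeR adjusted p = 0.00298), and it was held by a narrow margin, at an adjusted p of 0.0496 without control library 1. D17, a strigolactone synthesis enzyme, had 5.8, 4.51 and 8.74 CPM in salt libraries and 1.53 and 1.93 CPM in control libraries and rose by 1.88 ± 0.48. SLR1, the repressor of gibberellin responses, had 79.6, 93.7 and 72 CPM in salt libraries and 31 and 37.3 CPM in control libraries and rose by 1.26 ± 0.30. Neither D17 nor SLR1 was held, at edgeR adjusted p-values of 0.132 to 0.139 without control library 1 and 0.0727 to 0.086 without control library 2. No tested jasmonate repressor (7 JAZ genes), cytokinin response regulator (6 genes) or cell cycle gene (4 genes) passed the test on the TMM scale. The reference genes ACT1 and EF1A changed by 0.22 and 0.48 on the log2 scale and did not pass.

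**Figure D5:**
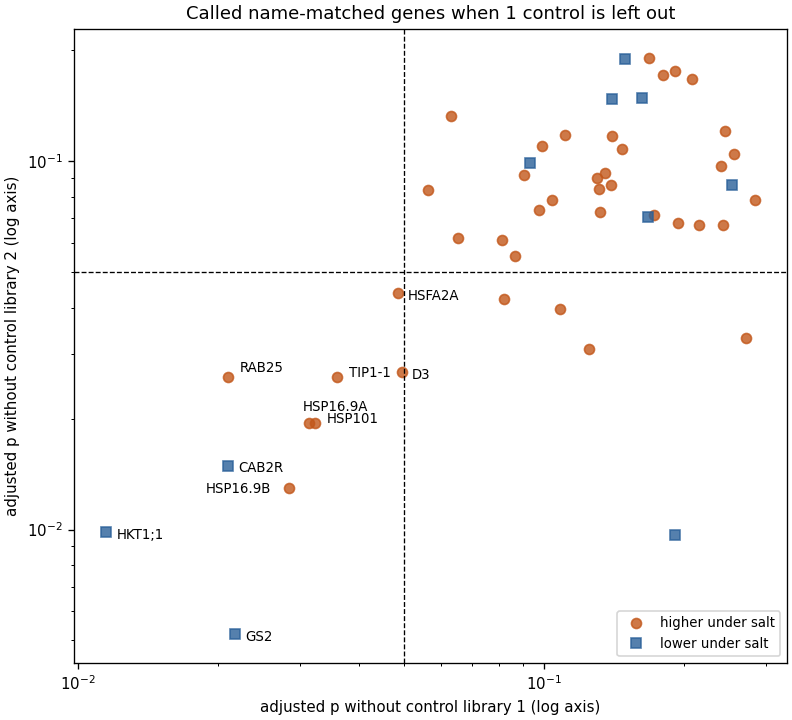
Adjusted p (edgeR, Benjamini-Hochberg) of the 50 called name-matched genes without control library 1 (horizontal) and without control library 2 (vertical), both on log axes; each point is a gene, circles higher and squares lower under salt, and dashed lines mark 0.05. The 10 named genes in the lower left are held, 5 genes are called only without control library 2, and 35 lie above the threshold in both reduced fits.

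The held fall of CAB2R (Os01g0600900, chromosome 1, 23607363 to 23608541), a chlorophyll-binding protein of photosystem II, was the largest among name-matched nuclear genes. Its control values, given above, nearly coincided and lay far over all 3 salt values, at a log2 fold change of -4.65 ± 0.75 (SE, edgeR adjusted p = 0.0027) and of -5.38 without salt library 2. The related CAB1R, given above, had a log2 fold change of -1.39 and did not pass the test (adjusted p = 0.276), and RCA changed by 0.40 (adjusted p = 0.517). Of the 58 tested plastid genes that the files name, 31 were called higher and 3 lower (58.6%, beside 27.1% of all genes), and 11 and 2 were held (22.4%, beside 4.60%). Of 31 tested mitochondrial genes 9 were called, all higher (29%), and none was held. The plastid polymerase gene rpoB had 17, 23.9 and 31.7 CPM in salt libraries and 0.489 and 0.825 CPM in control libraries, and the photosystem gene psbA had 10.3, 14.8 and 14.8 CPM in salt libraries and 99.8 and 36.4 CPM in control libraries. Both were held, at log2 fold changes of 5.19 ± 0.61 for rpoB and -2.35 ± 0.38 for psbA, the second of which was -1.45 without control library 1. Other held plastid rises were those of atpF, rps12, petE, rps2, atpH, atpI, rpoC1, psbK, psbE and psbF. Their log2 fold changes were 2.71 to 5.13. The plastid gene atpA fell by 2.65 ± 0.42 on the log2 scale, and by 2.06 without control library 1. Without control library 1 the rises of rps12, psbK, psbE and psbF were 5.40, 3.92, 3.61 and 3.33. With both controls they were 4.51, 3.02, 2.95 and 2.71. The rise of atpF was 4.48 without salt library 3.

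By the same rule of size without the need for a name, the largest held changes belonged to identifiers with no name in the sources used here. Os08g0262500 (chromosome 8, 9921522 to 9923218) had 168, 150 and 193 counts in salt libraries and 0 in both control libraries, a level at least 186-fold higher under salt when the controls are set at 3 counts over the group. Os06g0517700 (chromosome 6, 18955486 to 18956519) had 697, 68.3 and 795 CPM in salt libraries and 0.642 and 2.72 CPM in control libraries; its log2 fold change was 8.27, 7.58 without control library 1 and 9.65 without control library 2. In the other direction, Os04g0612301 had 1, 0 and 0 counts in salt libraries and 1276 and 167 in control libraries, and Os02g0814200 had 0, 2 and 0 counts in salt libraries and 1257 and 525 in control libraries. The level in control was 1319-fold higher for Os04g0612301 (exact conditional interval 236 to 52142) and 815-fold higher for Os02g0814200 (225 to 6731). The intervals cover counting error only, not the spread between libraries. Both genes had control library 1 above control library 2. Their fitted log2 fold changes, which rest on so few salt counts that they are no bound, ranged with 1 library left out from -7.87 (without control library 1) to -12.11 (without salt library 1) for Os04g0612301, and from -8.67 (without control library 1) to -12.45 (without salt library 2) for Os02g0814200.

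Whether S13 responded differently from S3 was tested as the difference of the responses in the same fit, and no gene passed (0 of 28189, 0%; 2435 at an unadjusted p under 0.05). For the 10 held name-matched genes the adjusted p of that difference was 0.473 to 0.965, and 9 of them, TIP1-1 being the exception, were also called in S3 in the same direction. HKT1;1 changed by -3.57 in S13 and by -3.17 in S3, and HSP16.9A by 6.90 in S13 and by 6.14 in S3. In S3, 9237 of all 28189 tested genes were called, in either direction. Of the 50 name-matched genes called in S13, 31 were called in S3 in the same direction. Of the 1296 held calls over all genes, 1196 were. Among the identifiers without a name, Os08g0262500 and Os06g0517700 were not called in S3, with log2 fold changes of -0.00 and 2.11 there. The S3 counts of Os08g0262500 are not given here, so its -0.00 does not show that it was expressed and unchanged in S3. Os04g0612301 and Os02g0814200 were called in S3, at -8.77 and -6.36. The test of the difference passed none of them, which does not show that the lines responded alike. A call in S13 and none in S3 does not show a difference between the lines, as for TIP1-1, which changed by 2.36 in S13 and by 0.67 in S3 (adjusted p of the difference 0.473).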

How the data were processed

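Each library has a deposited file of unnormalized counts for 38978 genes, in the column layout of featureCounts, per the file headers. The submitters' processing notes name build IRGSP-1.0 and the tools HISAT2 and featureCounts, after FastQC and Trimmomatic, with DESeq2 for their own tests, and no version or setting is given in the sources used here. Of 115 gene pairs on opposite strands sharing at least 90% of their exon bases, with a mean of at least 100 counts, all 115 agreed within 10%, so overlapping genes (29.4% of genes, 20 of the 50 called name-matched ones) share counts.

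The test was run with edgeR 4.0.16 under R 4.3.3. It used filterByExpr (10789 genes removed), TMM factors (0.729 to 0.922 in S13 salt, 1.33 and 1.35 in S13 control libraries), and a quasi-likelihood fit of all 10 libraries with 4 group means, checked on simulated counts. DESeq2 1.42.0 and limma 3.58.1 served as alternatives, and SciPy 1.17.1 gave the exact conditional binomial intervals. The chi-square between replicates was 34.8 to 206 per degree of freedom, and each library was counted as its own sample.

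Gene lists were written from general knowledge, and the comparison, the lists and the tests were chosen with earlier results of these data known. Of 244 listed identifiers, 190 names stood in the RefSeq table, and 181 lay within 3% of the chromosome's gene order and at 0.5 to 2 times the span of the entry. That tolerance and the 4 alternative symbols used for matching were set after the name table was seen. The proton pump, WRKY, zinc finger and MYB, lignin, auxin transport, gibberellin, strigolactone and expansin lists were added after the files were at hand. No member of the auxin transport list was tested, and no member passed in the diterpenoid, pathogenesis-related protein, fermentation or root marker lists. Named are the largest held changes among genes with a name that reach 5 CPM in a group (15 rises, and falls as far as there were any, 5), up to 4 genes a list of smallest p with at least 1 CPM, and the 2 largest held changes each way without the need for a name. Genes described outside this rule were chosen after their values were seen: RAB16B, RAB16C, PIP2-2, PIP1-3, HKT2;1, CESA4, IRT1, AMT1-3, psbF and the root genes so marked.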

Additional observations from a re-analysis of the deposited data

How the results depend on the processing

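The 10 held name-matched genes, which are by definition called without each control library, were also called in the same direction under each other setting tried here. Counts moved more. With library totals, 1375 genes were called higher and 10004 lower, of the name-matched genes 18 and 29, and 299 and 4135 were held. A test against a 2-fold change called 847 higher and 1149 lower, of the name-matched genes 10 and 3, with 47 and 142 held. Leaving out 1 of the 5 S13 libraries gave 553 to 3775 genes higher and 950 to 3973 lower, and of the name-matched genes 7 to 44 higher and 3 to 9 lower; the low ends came without control library 1.

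How the held count itself varies was looked at after the data were seen. Leaving out a salt library gave 238 to 836 held rises and 425 to 1018 held falls. It was 1932 and 1511 with DESeq2, and 777 and 1410 with limma-voom. When the S13 libraries were fitted alone, 34 of the 50 name-matched calls remained, but with 1 control left out no gene was called, so that 0 and 0 were held: the held calls rest on the spread estimated with the S3 libraries, and in each reduced fit the lone control is assumed to vary like the other groups. No held count exists where a control library is already left out.

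Libraries of equal replicate number had correlations of their deviations from group means of -0.135 to 0.199 over numbers 1 to 3. Libraries of unequal number were not compared, so these values do not settle whether the numbers pair libraries. A replicate block left 6 name-matched genes lower, and 145 rises and 222 falls held. The 10789 genes removed by the filter were too low to test at this depth.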

Other observations

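Among the S13 salt libraries, salt library 2 most often stood above the other two. It was at least 5-fold above both, at 5 CPM or more, for 158 tested genes, against 50 genes for salt library 3 and 27 for salt library 1. Of the 40 name-matched genes called higher under salt, 20 were highest in salt library 2, 17 in salt library 3 and 3 in salt library 1. The amylase RAMY3D, at 1201 CPM in salt library 2 beside 46.1 and 15.6 CPM in salt libraries 1 and 3, and the protein phosphatase PP2C30, at 1302 CPM beside 230 and 67.3 CPM, were of the first kind. PP2C30, chosen after its values were seen, had 86.9 and 123 CPM in control libraries and did not pass the test (edgeR adjusted p = 0.0906). The small heat shock genes had the opposite order, with salt library 2 the lowest.

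The auxin carrier PIN2, known from root tips, had 119 counts in a single S3 library and 0 in the other 9 libraries of the series. The aquaporins PIP2-3 and PIP2-5, also known from roots, had 8 and 14 counts over the 5 S13 libraries. Both were chosen after their values were seen.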
